A study of Neurospora crassa with 112 samples.

Results

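Of the 4283 *Neurospora crassa* genes with a median expression level of 20 RPKM or more, 19 fell below 0.5 RPKM in 1 to 4 of the wild-strain libraries, which is 0.444% of them. RPKM divide the reads of a gene by its length and by the size of the library, so a level of 20 is that of an active gene and a level below 0.5 is a handful of reads or none. The 19 genes were picked from the whole table of 9733 genes by these values alone. Their absence is therefore the criterion of choice and not a result, and it was given no test.

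*N. crassa* is a filamentous ascomycete whose vegetative mycelium carries haploid nuclei, so that a strain which has lost a gene has no other allele to cover for it. Its genes are numbered NCU and lie on chromosomes that are called linkage groups, and neighbouring genes mostly carry neighbouring numbers. Genes near chromosome ends, and genes of allorecognition, the system by which a colony tells itself from others, are known to vary in content between wild strains of this species. The genes of the table are those of the laboratory strain FGSC 2489, whose genome is the reference of the species. In these data a deleted gene, an allele too different for its reads to map, and a gene that was silent in the culture cannot be told apart, and a gene that only wild strains carry cannot be seen.

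Polyadenylated RNA came from 16 h mycelium of wild-type strains, raised on sheets of cellophane that covered Bird medium, which is a defined mineral and sugar medium. No strain was mutated or treated. The names of the strains form the sole grouping in the labels, 72 strains of a JW collection and 40 strains of D or Fungal Genetics Stock Center (FGSC) numbers. The strain list of the study places most D and FGSC strains at Franklin, Louisiana, and the JW strains at many sites in that state, except JW5 and JW7 from Panama. Each strain gave 1 library. In 4 pairs of 1 FGSC and 1 D column, between 88.3% and 90.7% of the values were identical, and each pair was averaged and counted as 1, which leaves 36 D or FGSC libraries beside the 72 of JW. JW168 was left out of the study's tree because its pattern of inheritance hinted at misclassification, and FGSC 2489 is the reference itself. Recovered library totals were 4174767 to 30748165 reads. The 6 housekeeping genes checked (actin, beta-tubulin, *tef-1*, *gpd-1* and histones H3 and H4) were at 755 RPKM or more in every library.

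The 19 genes were low in 27 gene-library combinations that involved 22 libraries. Among these were 17 of the 72 JW libraries (23.6%) and 5 of the 36 D or FGSC libraries (13.9%). No member was low in 5 libraries. In 14 cases the gene was low in 1 library and in 3 cases in 2 libraries, NCU08541 was low in 3, and NCU09306 in 4. Of the 22 libraries, 5 lacked a pair of members each: D117 (NCU01861 and NCU08541), JW168 (NCU01838 and NCU08065), JW262 (NCU01107 and NCU08164), JW176 (NCU09901 and NCU09903) and JW5 (NCU04197 and NCU09841). Of these pairs, that in JW176 lay side by side. The laboratory strain FGSC 2489 had all 19 genes above 0.5 RPKM, with NCU01861 lowest against its own median at 1.26 RPKM (7 reads).

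Read depth was set beside the low values, and its part in them was not tested. A count of 3 reads corresponds to more than 0.5 RPKM in D116 (1.18 RPKM), FGSC 4455 (0.632) and JW9 (0.580). The same holds in JW66 (0.540) and, for NCU04197, in JW5 (0.625). The 27 combinations held 0 to 9 reads each, with 0 reads in 9 of them and 3 reads or fewer in 19. At the median level of the gene, the same libraries would have held between 190 and 4395 reads, with a median of 576. The totals of the 22 libraries were 4506840 to 25417268 reads with a median of 19172673, beside a median of 18200891 in the other 86. The sum of the conidial markers *con-6*, *con-10*, *con-13* and *eas*, which report asexual spores in a mycelial culture, ran from 74.0 to 10261 RPKM (median 2022) in the 22 libraries and from 109 to 122124 RPKM (median 3625) in the others, and *con-13* was at 0 in 7 libraries. Its part in the low values was not tested.

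The 19 genes separated into a group of 5 with a clean gap and a group of 14 without one. In the group of 5, which comprised NCU09901, NCU09903, NCU08065, NCU09841 and NCU04542, each library other than the lacking one held at least 10% of the median level. In the group of 14, at least 1 other library was below 10% of the median. The lowest other library of these genes lay between 0.502 RPKM (NCU02880) and 4.45 RPKM (NCU01838). Across all 19 genes the ratio of the 90th to the 10th percentile of the libraries had a median of 11.5, beside 1.70 for all genes with a median of 20 RPKM or more. That ratio was 10 or more for 11 of the 19 genes (57.9%), against 1.84% of all such genes. These differences cannot be separated from the choice, since a gene with a wide spread passes below 0.5 RPKM more easily.

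**Figure D1:**
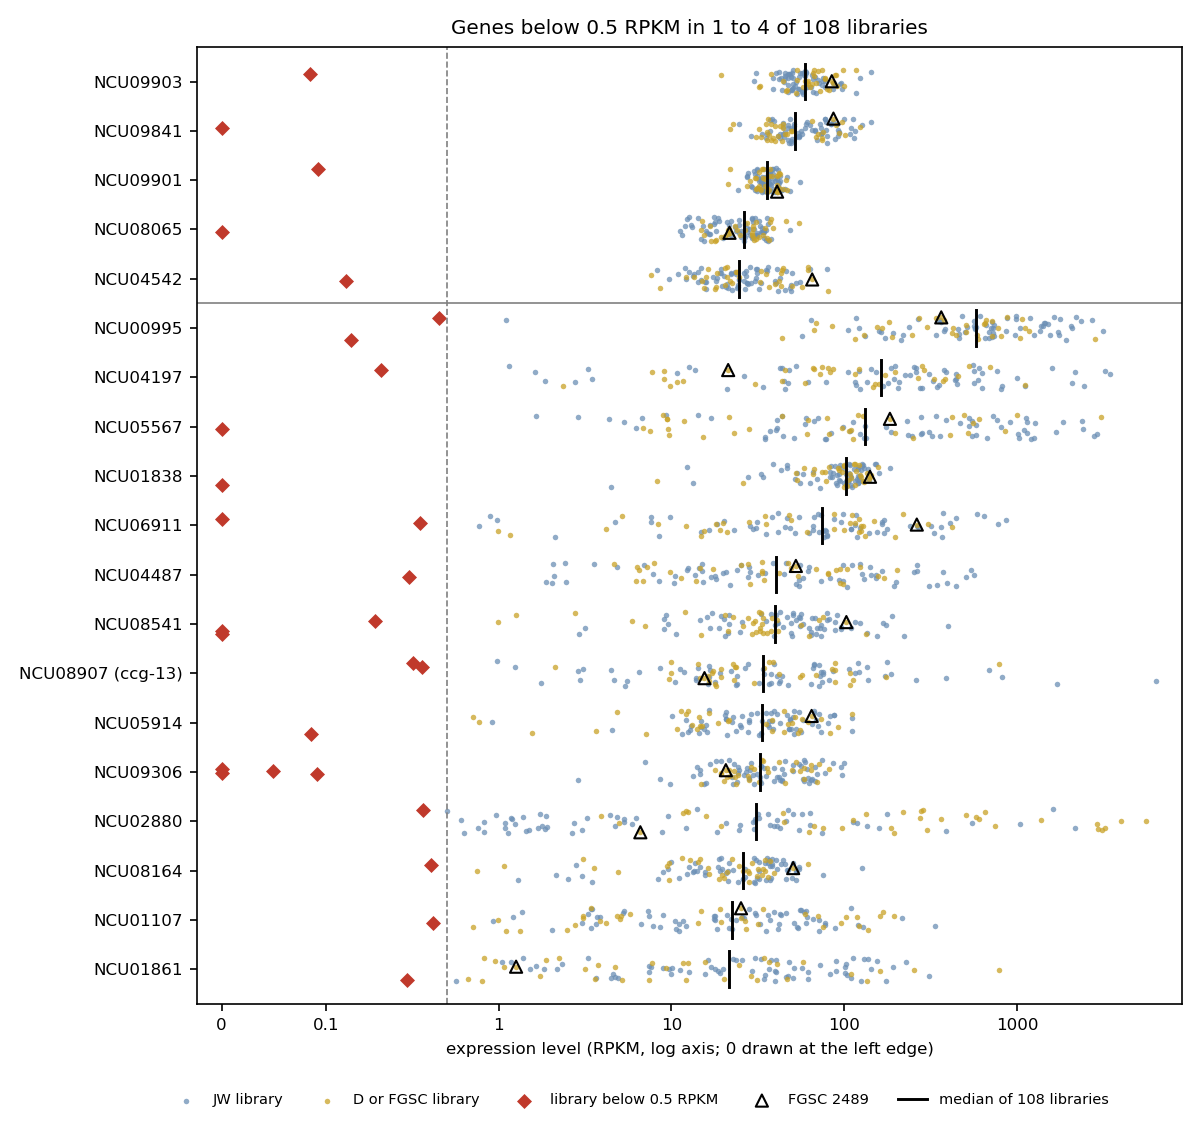
Expression level in RPKM (log axis, 0 drawn at the left edge) of the 19 genes in all libraries; points are libraries, red diamonds are those below 0.5 RPKM (dashed line), triangles are FGSC 2489 and black bars are medians. Above the grey line stand the 5 genes whose other libraries all hold at least 10% of the median. Below it stand the 14 genes with at least 1 other library under 10% of the median.

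The clearest case of neighbouring genes low together was the left end of linkage group I in JW176, a strain from Welsh, Louisiana. The members NCU09901 and NCU09903 occupy places 2 and 3 of that chromosome arm. NCU09901 was among the most even genes of the set: JW libraries other than JW176 and all D or FGSC libraries lay between 21.2 and 55.6 RPKM (FGSC 4496 and JW162), with a median of 36.2 RPKM in the 72 JW libraries and 35.8 RPKM in the 36 D or FGSC libraries. JW176 held 0.0902 RPKM, which was 2 reads where 797 would stand at the median level. NCU09903 reached from 19.3 RPKM (FGSC 4459) to 143.5 RPKM (JW7) outside JW176, with medians of 56.2 RPKM among JW and 66.6 RPKM among D or FGSC strains. JW176 held 0.0809 RPKM, or 6 reads where 4395 would stand. For both genes the JW176 value was far below every other library.

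The drop in JW176 extended over the genes around them. NCU10129, in place 1, had 1 read instead of 163. NCU09904, in place 5, had 0 reads instead of 76.2, and NCU09906, in place 7, had 2 reads instead of 261. Both were the lowest values in any library. NCU11134, NCU09907 and NCU09908 in between are hardly expressed in any strain, and place 6 (NCU14001) has no row in the table. The 8 measured genes of places 1 to 9 together had 12 reads in JW176 where the median levels would give 5697. NCU09909 in place 10 stood at 19.8 RPKM beside a median of 21.04 RPKM, NCU09910 in place 11 stood at 5.69 RPKM beside 11.2 RPKM, and NCU09911 and NCU09912 further in stood at 159 and 20.2 RPKM beside medians of 175 and 18.8 RPKM. The low stretch thus ran from the first annotated gene to place 7 at least, and it had ended by place 10.

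NCU10129 was also missing from FGSC 4457, JW250 and JW66, at 0, 0.174 and 0 RPKM beside a median of 15.4 RPKM. In these libraries the stretch went no further. NCU09901 stood at 41.3, 38.1 and 39.6 RPKM there and NCU09903 at 52.6, 47.5 and 71.4 RPKM, all within the range of the other strains. JW250 and JW66 were both collected at Sugartown and FGSC 4457 at Franklin. NCU10129 itself was no member, because its median lies below 20 RPKM.

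**Figure D2:**
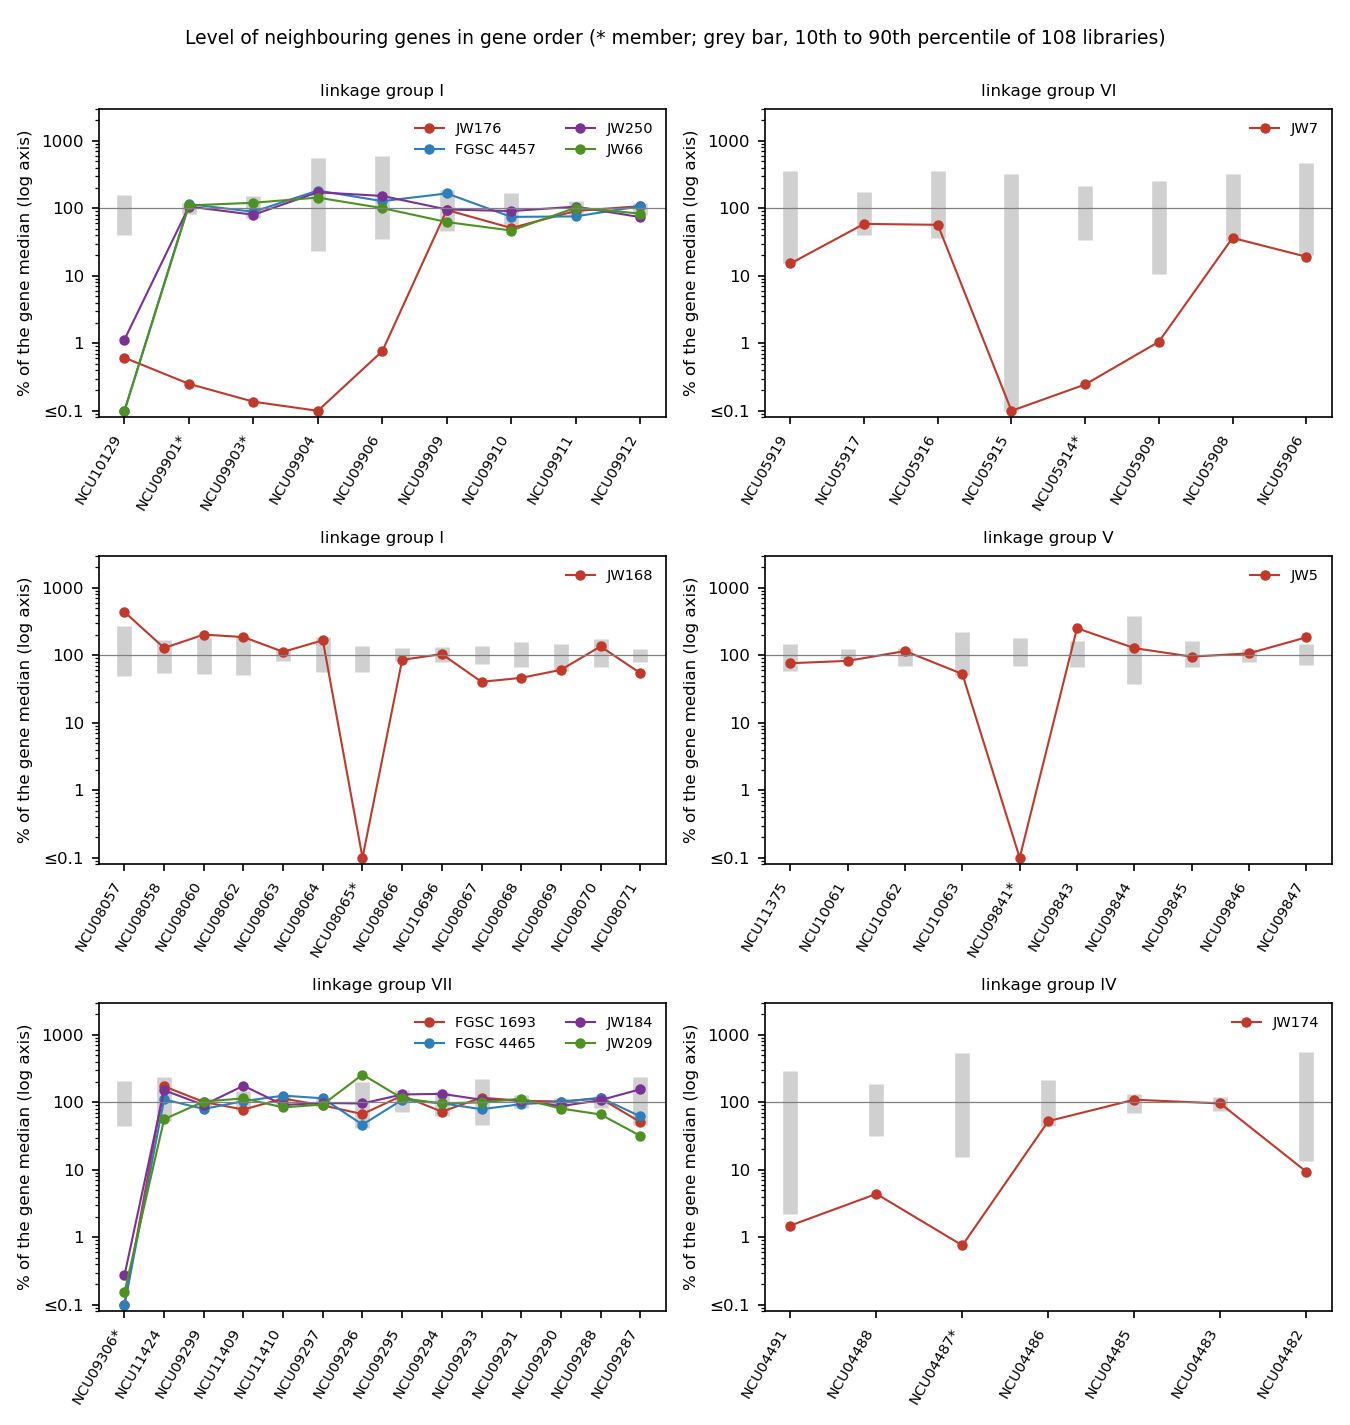
Level of each gene as a percentage of its own median (log axis, values of 0.1% or less drawn at 0.1) in gene order for stretches of 5 linkage groups, genes with a median of 1 RPKM or more; lines are the named libraries, grey bars span the 10th to 90th percentile of all libraries and asterisks mark members. JW176 stays at or below 1% of the median from NCU10129 to NCU09906 and returns at NCU09909, JW7 drops over 3 genes, and JW168, JW5 and the 4 libraries that lack NCU09306 drop at 1 gene.

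Linkage group VI in JW7, a strain from Panama, had a shorter stretch. The member NCU05914 held 0.0818 RPKM there, 1 read where 407 would stand. Its other 107 libraries began at 0.711 RPKM (D116) and 0.768 RPKM (D118), so this gene has no clean gap, and its medians were 34.4 RPKM among JW and 21.4 RPKM among D or FGSC strains. To its left NCU05915 was at 0 reads where 136 would stand, and to its right NCU05909 had 1 read instead of 94.9. NCU05915 is below 0.5 RPKM in 48 other libraries as well, and NCU05909 in 10 others, so both are low in many strains in which NCU05914 is not. NCU05912, NCU05911 and NCU05910 between them had a median of 0 RPKM over all libraries. The stretch ended at NCU05916 (3.17 RPKM, median 5.58 RPKM) and NCU05908 (6.20 RPKM, median 17.02 RPKM), both below their medians. Beyond these, NCU05919 (3 reads where 19.7 would stand), NCU05906 (5 where 26.1 would stand) and NCU05159 (1 where 7.93 would stand) were below 0.5 RPKM in JW7 again, as they were in 24, 18 and 43 other libraries.

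For 2 further members a neighbour was low beside them, each time a gene of low level. In JW240, from Roanoke, NCU02880 had 4 reads where 339 would stand, and NCU02879 next to it had 7 reads instead of 70.1. NCU02879 is below 0.5 RPKM in 10 other libraries. In JW262, from Elizabeth, NCU01107 had 9 reads instead of 477, and NCU01112, 4 places on, was at 0 RPKM beside a median of 1.09 RPKM. NCU01112 is below 0.5 RPKM in 36 other libraries.

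JW174, from Houma, lacked NCU04487 (0.305 RPKM, 6 reads instead of 791), and the neighbouring NCU04488 stood at 2.82 RPKM there beside a median of 64.2 RPKM. That was the lowest NCU04488 value but one. On the other side NCU04486 was at 10.5 RPKM beside a median of 19.9 RPKM. NCU04487 itself ranged from 1.89 RPKM (JW182) to 560 RPKM (JW222) in the other libraries.

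Counted over all members, such joint drops were few. Within 6 places of a lacking member lay 138 values of other genes that have a median of 1 RPKM or more. Of these, 7 (5.07%) were below both 0.5 RPKM and 10% of the median, beside 0.505% of all such values in the same 22 libraries, and 5 of the 7 belonged to JW176 and JW7. The remaining 14 members had no neighbour of this kind. By the strict count, which takes members next to each other in gene order and low in the same library, there was 1 run, NCU09901 with NCU09903.

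The remaining 3 genes with a clean gap dropped without a neighbour (median of 1 RPKM or more, within 6 places) below 10% of its own median, although some neighbours were at the edge of their range. NCU08065, at place 33 of linkage group I, had 0 reads in JW168, where 782 would stand, which makes it at least 261-fold lower than its median (a count of 0 allows up to 3 reads). The other JW libraries began at 11.3 RPKM (JW162) and the D or FGSC libraries at 14.8 RPKM, with medians of 25.9 and 28.2 RPKM. Its neighbours NCU08064 and NCU08066 were at 8.25 and 40.1 RPKM in JW168, beside medians of 4.96 and 46.8 RPKM. NCU08067 and NCU08068, 3 and 4 places on, were at 22.6 and 12.5 RPKM, or 0.404 and 0.462 of their medians, which was the lowest and the lowest but one for these genes in any library. NCU09841 on linkage group V had 0 reads in JW5 where 330 would stand, at least 110-fold below its median. Elsewhere it lay between 21.7 RPKM (FGSC 4465) and 142.95 RPKM (JW167), with medians of 56.6 RPKM among JW and 44.1 RPKM among D or FGSC strains. Near it in JW5, NCU10063 was at 6.76 RPKM beside a median of 12.8 RPKM, NCU10061 at 279 beside 337 RPKM, the lowest value but one, and NCU09843 was high, as given further on. NCU04542 on linkage group VII had 2 reads in JW256, from the town of Iowa in Louisiana, where 375 would stand. It lay between 7.62 RPKM (FGSC 4448/D110) and 80.6 RPKM (FGSC 4497) in all others, and its neighbours NCU04543 and NCU04541 were at 17.8 and 62.7 RPKM beside medians of 34.5 and 64.3 RPKM. NCU04537, 5 places on, was at 0.898 RPKM (33 reads) beside a median of 3.15 RPKM, its lowest value in any library. For each of these 3 members the lacking library stood alone, which the definition of a clean gap requires.

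NCU09306 was the member missing from the most libraries, and it is the first gene at the left end of linkage group VII. FGSC 1693 and FGSC 4465 had 0 reads where 253 and 338 would stand, JW184 had 2 instead of 734, and JW209 had 1 instead of 654. These strains were collected at Franklin (FGSC 4465), the town of Iowa (JW184) and Fred (JW209), while FGSC 1693 is listed for Louisiana without a site. The lowest other libraries were JW233 at 2.89 RPKM and JW7 at 7.03 RPKM, and the medians were 32.9 RPKM among JW and 29.5 RPKM among D or FGSC strains. The next gene inward, *cao-2* (NCU11424), which encodes a carotenoid oxygenase, was at 65.9, 42.2, 57.6 and 21.5 RPKM in the lacking libraries, in the same order, beside a median of 38.3 RPKM and a lowest value of 14.9 RPKM over all strains. The drop did not reach *cao-2*, the only gene within 6 places of NCU09306 that was measured. At the end of linkage group I, NCU10129 likewise dropped without the next gene in 3 libraries.

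NCU00995, on linkage group I, had the highest median of the set at 576 RPKM. JW216 (Welsh) had 3 reads where 3839 would stand and JW228 (Georgia Plantation) had 1 instead of 4085. JW252 came next with 1.10 RPKM, and then FGSC 4457 with 43.7 RPKM, so that 3 JW libraries stood well apart from the other 105. The JW libraries had a median of 659 RPKM and reached 3163 RPKM (JW160), and the D or FGSC libraries had a median of 433 RPKM and ran from 43.7 to 2838 RPKM. Its neighbour NCU09874 was at 70.05 RPKM in JW216 and 101 RPKM in JW228, beside a median of 77.7 RPKM. On the other side NCU00994, a gene of low level, was at 0.0861 RPKM in JW216 (2 reads where 20.2 would stand), its lowest value in any library, and at 0.566 RPKM in JW228, beside a median of 0.871 RPKM.

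NCU01838 on linkage group II was narrow in most strains but not clean. JW168 had 0 reads where 1858 would stand, at least 619-fold below the median of 102 RPKM. JW59 at 4.45 RPKM and D116 at 8.26 RPKM followed, while the 10th and 90th percentiles were 45.6 and 132 RPKM. Its neighbour NCU01835 was at 666 RPKM in JW168 beside a median of 605 RPKM. JW168 is thus the one library with a pair of members at exactly 0 reads, on different linkage groups, and without this library NCU01838 and NCU08065 would not meet the rule.

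NCU08541, on linkage group III, had 0 reads in FGSC 4455 and D117, both from Franklin, where 190 and 412 would stand, and 1 read in JW9, from Welsh, instead of 207. FGSC 4476 and FGSC 4452 followed at 0.999 and 1.26 RPKM. The D or FGSC median was 31.5 RPKM and the JW median 50.4 RPKM, with a highest value of 400 RPKM in JW234. The nearest gene to its left with a median of 1 RPKM or more, NCU08549, is 9 places away. In D117 that gene stood at 6.36 RPKM beside a median of 52.98 RPKM, and in FGSC 4455 and JW9 it stood at 27.3 and 45.9 RPKM. To its right, NCU08537 and NCU08535 stood at 0.829 and 81.3 RPKM in D117, beside medians of 4.04 and 142 RPKM, at 3.38 and 165 RPKM in FGSC 4455 and at 5.62 and 133 RPKM in JW9. D117 was thus the one of the 3 libraries in which genes on both sides were low.

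The remaining members graded into low levels. The one with a gene symbol was *ccg-13* (NCU08907), named as a clock-controlled gene. It had 4 reads in JW199 where 424 would stand and 2 in JW66 instead of 190, and the next libraries were JW169 at 0.974 RPKM and JW230 at 1.25 RPKM. At its upper end it reached 6369 RPKM in JW234, while the medians were 37.3 RPKM among JW and 23.5 RPKM among D or FGSC strains. NCU06911 had 5 reads in JW169 and 0 in JW178, where 1058 and 1020 would stand, with JW199 next at 0.767 RPKM. Its highest value was 858 RPKM (JW240).

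NCU04197 had 1 read in JW5, where 783 would stand. JW159 (1.15 RPKM) and then JW7 (1.63 RPKM), the other Panama strain, came next, and its highest value was 3457 RPKM in JW256. NCU05567 had 0 reads in D116, one of the shallowest libraries at 4506840 reads, where 333 would still stand at the median level. It ran on from 1.64 RPKM (JW174) to 3079 RPKM (FGSC 4463). NCU08164 had 9 reads in JW262 instead of 576, with FGSC 4455 next at 0.753 RPKM, and NCU01861 had 8 reads in D117 instead of 581, with JW7 next at 0.567 RPKM. For these members the lacking library was the end of a continuous range and no gap set it apart.

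The thresholds cut through that range. Members just inside the median limit were NCU01861 (21.4 RPKM), NCU01107 (22.3 RPKM) and NCU04542 (24.5 RPKM), and genes just outside were NCU07802 (19.9 RPKM), NCU08491 (18.3 RPKM) and NCU11829 (18.2 RPKM). For the low value, NCU01107 (0.420 RPKM), NCU08164 (0.407 RPKM) and NCU02880 (0.366 RPKM) lay just inside and NCU03427 (0.528 RPKM), NCU05609 (0.547 RPKM) and NCU01926 (0.577 RPKM) just outside. With a median of 10 RPKM or more as the limit there were 47 members.

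Several members varied together with a neighbouring gene in the strains that expressed them. Each member was compared with the nearest gene on either side that has a median of 1 RPKM or more, over the libraries in which the member was at 0.5 RPKM or more, on the log2(RPKM + 1) scale. In 18 of 36 such relations the correlation passed a Benjamini-Hochberg adjusted permutation p of 0.05 (100000 permutations, two-sided, adjusted over the 36 relations), and all 18 were positive, with r of 0.24 or more (50% of the relations). Among the 8057 such relations of the other genes with a median of 20 RPKM or more, 32.1% reached the same r. An r of 0.5 or more was found in 6 of the 36 (16.7%), beside 8.42% of those relations. The median r was 0.22 beside 0.11. The rule that chose the members favours genes with a wide spread, and the other genes were not matched to them for spread. The differences in r therefore cannot be separated from that choice.

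The closest relation was that of NCU02880 with NCU02879 (r = 0.90, rho = 0.88, n = 107, raw permutation p of 1e-05 for both, the smallest that 100000 permutations can give, adjusted permutation p = 3.27e-05 for r and 3.6e-05 for rho). It was 0.82 within JW and 0.95 within D or FGSC, and 0.89 without the 2 libraries farthest from the NCU02880 median. NCU01107 with NCU01112 gave r = 0.74 and rho = 0.80 (0.69 within JW, 0.81 within D or FGSC), although NCU01112 was at a low level in most strains. NCU01861 gave r = 0.67 with NCU01862 and r = 0.69 with NCU01860, its neighbours on both sides. NCU06911 with NCU06912 gave r = 0.53, and *ccg-13* with NCU08909 gave r = 0.60, which was 0.47 without the 2 farthest libraries. In these 5 relations, too, the raw permutation p of r was the smallest possible. In the libraries that lacked NCU06911, NCU06912 was reduced and not absent, at 40.9 and 25.5 RPKM beside a median of 89.3 RPKM.

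Of the 5 members with a clean gap, NCU09901 and NCU09903 gave r = 0.47 with each other, NCU04542 gave r = 0.47 with NCU04543, and the other relations of these genes with a neighbour were between -0.17 and 0.30. Both genes of a relation are read from the same library, so its depth and culture enter every r given here.

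**Figure D3:**
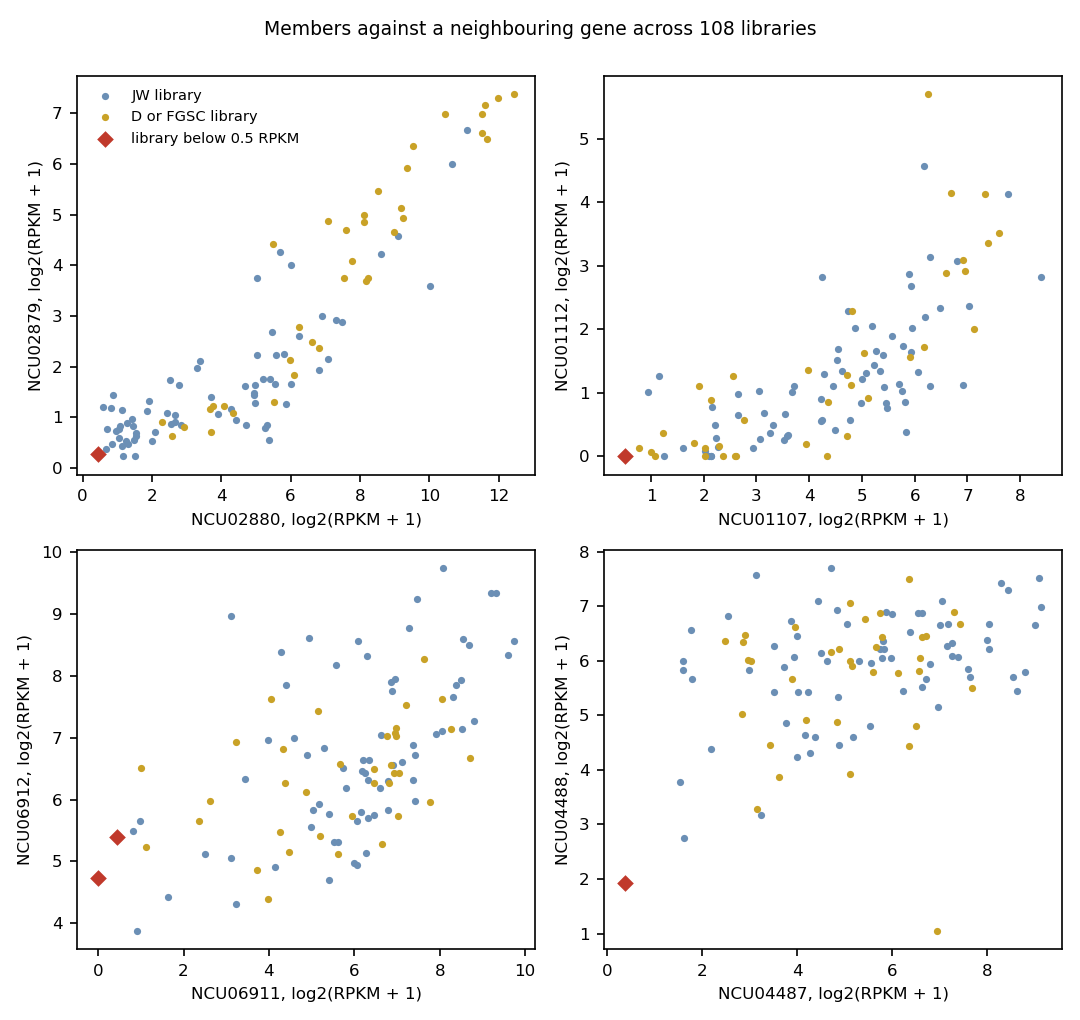
Level of 4 members (horizontal axes) against a neighbouring gene (vertical axes), both as log2(RPKM + 1), in all libraries; red diamonds are libraries in which the member is below 0.5 RPKM. NCU02880 and NCU02879 rise together over the whole range, NCU01107 and NCU01112 and NCU06911 and NCU06912 do so with more scatter, and in JW174 both NCU04487 and NCU04488 are near the bottom of their ranges.

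The levels of the 19 genes were also compared between the JW and the D or FGSC libraries, the sole contrast that the labels give. Strain, site, culture and library differ together between these series and cannot be told apart. By limma on log2(RPKM + 1) with Benjamini-Hochberg adjustment, 179 of 7985 genes (2.24%) passed at 0.05, and 1 of the 19 members did (5.26%), NCU02880. The share over all genes was 0.388% (8 higher and 23 lower in JW) with the library total as a covariate, 1.35% (27 and 81) with voom on the recovered reads and 4.13% (127 and 203) with quantile normalization, against 93 and 86 here, and NCU02880 passed in each. Of the members, 13 were higher and 6 lower in JW, while 48.98% of all genes tested were higher. The median log2 difference of the members was 0.24, beside -0.003 over all genes tested. Members were chosen by a median over mostly JW libraries, so this tilt cannot be separated from the choice. An unadjusted limma p below 0.05 was found for 4 members (21.1%), near the 18.9% of all genes tested.

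NCU02880 was lower in JW. Its JW libraries ran from 0.366 to 2174 RPKM with a median of 10.8 RPKM and its D or FGSC libraries from 3.91 to 5583 RPKM with a median of 206 RPKM. The ranges overlapped widely, but 36 of 72 JW libraries and 3 of 36 D or FGSC libraries were below 10 RPKM, and 10 of 72 and 22 of 36 were at 100 RPKM or more. The log2 difference was -3.60 (SE 0.55, limma adjusted p = 3.5e-06). The JW median lies below the limit of 20 RPKM, so NCU02880 met that limit through its D or FGSC libraries. Its low library, JW240, is a JW one. The test thus reuses values that chose the gene, and the difference cannot be separated from that choice. FGSC 2489 stood with the low libraries at 6.61 RPKM. The co-varying neighbour NCU02879 was lower in JW as well, with medians of 1.28 and 18.2 RPKM and a log2 difference of -2.29 (SE 0.34, limma adjusted p = 1.6e-06).

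NCU08541 was next, with a log2 difference of 1.00 (SE 0.31) at a limma adjusted p of 0.0576, which did not pass the threshold. That p ran from 0.0354 to 0.0971 over the other settings tried and passed in 5 of them. NCU05567 (1.29, SE 0.51) and NCU01861 (0.99, SE 0.42) also had an unadjusted p below 0.05 and adjusted limma p-values of 0.139 and 0.168. For the 5 genes with a clean gap the differences lay between -0.20 and 0.22 with 95% intervals from -0.48 to 0.54, so that a difference above 1.46-fold in either direction lies outside each of them.

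**Figure D4:**
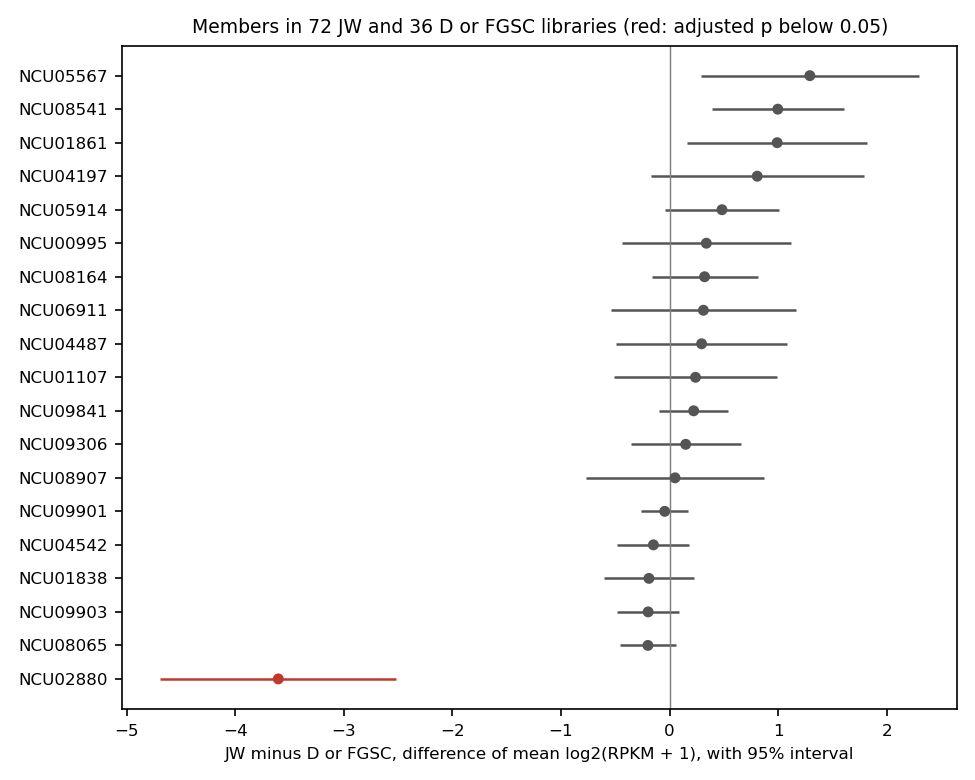
Difference between 72 JW and 36 D or FGSC libraries in mean log2(RPKM + 1) for the 19 genes, with the 95% interval from limma. NCU02880 at -3.60 is the 1 gene past an adjusted p of 0.05 (red), and the intervals of 15 of the other genes include 0.

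Genes that stood higher where a member was missing were sought next to it and across the table. Among the 138 neighbouring values, 5 (3.62%) were at 2-fold or more of the gene's median, against 3.86% of all such values in the same libraries, and 16 (11.6%) were at 1.5-fold or more, against 9.32%. The largest among these genes, which have a median of 1 RPKM or more, was NCU01103, 5 places from NCU01107, at 16.4 RPKM (184 reads) in JW262 beside a median of 1.49 RPKM, and that was its highest value in any strain. Below that limit, NCU00990, 6 places from NCU00995, was at 11.6 RPKM (292 reads) in JW228 beside a median of 0.981 RPKM. In JW216, which also lacks NCU00995, NCU00990 was at 3.69 RPKM (87 reads). NCU01105, 3 places from NCU01107, was at 3.91 RPKM in JW262 beside a median of 1.62 RPKM. In JW5, NCU09843, next to the missing NCU09841 but for 1 gene, stood at 47.3 RPKM beside a median of 18.8 RPKM, higher than in all libraries but 1. The other pair were NCU08060 in JW168 (6.84 beside 3.39 RPKM) and NCU06908 in JW169 (20.6 beside 9.94 RPKM).

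A gene that mirrors a member, at 5 RPKM or more wherever the member was missing and below 0.5 RPKM in every other library, was found for JW262 alone. It was NCU09835 on linkage group V, at 11.4 RPKM (90 reads) in JW262 and at most 0.310 RPKM elsewhere. JW262 lacks NCU01107, which is on the same linkage group, and NCU08164. Genes of that pattern, each seen in a single library, occurred in 3 of the 22 libraries that lack a member and in 6 of the 86 that lack none. For the members missing from more than 1 library no gene was 3-fold above all other libraries in those that lacked it. In JW176 the gene at 5 RPKM or more and 3-fold above all others was NCU09413, at 6.05 RPKM beside 0.728 RPKM. In JW168 there were 3 (NCU01357, NCU08188 and NCU11905) and in D116 there were 4, and other libraries reached up to 51. With 1 library per strain, none of these can be tied to an absence.

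None of 14 allorecognition and mating type genes belonged to the 19, although 8 of them were below 0.5 RPKM in at least 1 library, because their medians were low or their absences frequent. Of the list, 5 genes have a median of 20 RPKM or more, and at the 0.444% of such genes that are members a list of this size would hold none in most cases. For example, *het-6* was below 0.5 RPKM in 46 libraries with a median of 3.55 RPKM, and *rcd-1* (NCU05712), a cell death regulator with incompatible allele classes, in 41 libraries with a median of 28.7 RPKM. By contrast, *un-24* did not go below 29.6 RPKM and *vib-1*, a transcription factor of heterokaryon incompatibility, not below 68.9 RPKM. The 6 housekeeping genes and the 4 measured conidial genes held no member either.

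The 19 genes were spread over all 7 linkage groups, with 6 on linkage group I, 4 each on V and VII, 2 on VI and 1 each on II, III and IV. Of these, 3 lie within the first 3 places from the left end of a linkage group: NCU09306, NCU09901 and NCU09903. NCU09901 and NCU09903 were low in the same library, JW176. From the right ends, the closest member was NCU08541 at place 79. The shares of all genes per linkage group and at such places were not computed. The coding lengths of the 19 genes were 375 to 3333 bases with a median of 909. That was shorter than the median of 1212 for all genes with a median of 20 RPKM or more. Of the 19, 18 carry no gene symbol in the annotation, and the share of all genes without a symbol was not computed.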

How the data were processed

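The authors deposited 1 table of RPKM values, scaled by gene length and library total, for 9733 genes and 112 strains of *N. crassa*. Alignment with Bowtie 0.12.2 is credited to the submitters' processing notes. The counting tool and the annotation release were not given in the sources used here. Each column carries the name of its strain, and 0 columns were not used. The spacing of low values within a library gave the reads behind each RPKM value (whole within 0.001 for all 9696 genes above 0). Recovered lengths are coding lengths, since 99.9% of them are multiples of 3. Floors (3 reads) cover counting error only.

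Members were genes with a median of 20 RPKM or more over the 72 JW and 36 D or FGSC libraries and below 0.5 RPKM in 1 to 5, and the members and lists were chosen with earlier results of these data known. Members that stand in a run with their flanks, were missing from 4 or more libraries, ranked in the 15 highest medians, carry a symbol, lie at a threshold or passed the series test were to be named, and all 19 are. Gene order, linkage groups and symbols came from the RefSeq table of assembly NC12 (8914 of 9733 identifiers matched), and no coordinates are given because the build of the deposited table is not named. Libraries that lack a gene are defined by its value and were not tested as a group.

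The JW and the D or FGSC series were set against each other in limma 3.58.1 (R 4.3.3, trend, log2(RPKM + 1), genes with a mean of 1 RPKM or more, Benjamini-Hochberg adjustment). With 1 library per strain, p-values rest on a spread in which strain, culture and library are mixed. Libraries were treated as independent, and relatedness between strains was not modelled. FGSC 4450 and FGSC 4451 had similar levels of most members (NCU02880 at 285 and 300 RPKM). So did JW260 and JW261 (NCU02880 at 2.65 and 2.75 RPKM). The tests were first run on simulated data. Correlations used 100000 permutations in Python 3.11.15 with numpy 2.4.6 and pandas 2.3.3. Alternatives changed the thresholds, the libraries, the scaling, the pseudocount, the filter and the model.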

Additional observations from a re-analysis of the deposited data

How the results depend on the processing

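The set of members followed the thresholds. There were 47 members with a median of 10 RPKM or more and 7 with 50 RPKM or more, and there were 7 when missing meant 0 RPKM and 11 when it meant below 0.1 RPKM. Below 1 RPKM gave 26 members, of which 16 were among the 19, and NCU01861, NCU02880 and NCU06911 then exceeded 5 libraries. Without JW168 there were 18 members, 17 of them shared, and without JW5 and JW7 there were 17, 16 of them shared. Adjacent members low in the same library made 1 run, 2 with a median of 10 RPKM or more (NCU10129 joins), and 0 with 50 RPKM or more, with missing as 0 RPKM, or with neighbours taken as consecutive NCU numbers. Neighbours at 1.5-fold or more of their median, a limit chosen after seeing the data, numbered 16 of 138 (11.6%, beside 9.32% of all such values).

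The share of genes that differed between the series, 2.24%, was 0.388% with the log2 library total as a covariate, 1.35% with voom on the recovered reads, 4.13% with quantile normalization, 4.03% without the Panama strains and 3.62% with each of the 112 columns as its own library. Higher and lower calls in JW, 93 and 86, became 8 and 23 with the covariate, 27 and 81 with voom, and 127 and 203 with quantile normalization. NCU02880 passed in every setting, with a log2 difference from -4.00 to -2.96, but each setting used the values that chose it. With median centring (1.00), quantile normalization (0.99), the 112 columns (0.96), and without FGSC 2489 (1.06) or the Panama strains (1.04), NCU08541 passed as well, which made 2 members. No paired analysis was possible because replicate numbers were given in accession order only. The planned search for closest relatives by protein sequence was not run, since no protein sequences were used here. What compensates at the level of protein families was therefore not analysed here. Depth limits single low values, as 3 reads correspond to 0.0404 to 1.18 RPKM over the 27 combinations.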

Other observations

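Genes that otherwise met the same limits but were missing from more than 5 libraries numbered 5. NCU04905 (median 104 RPKM) was below 0.5 RPKM in 10 libraries, NCU11292 (35.2 RPKM) in 18, NCU05836, which carries the glycoside hydrolase symbol *gh47-4* (32.9 RPKM), in 25, NCU05835 (23.03 RPKM) in 30, and *rcd-1* (28.7 RPKM) in 41. NCU05835 and NCU05836 lie next to each other, and all 25 libraries that lacked NCU05836 also lacked NCU05835 (100% of the former and 83.3% of the latter). In the other 9 pairings of these 5 genes the shared libraries were 2 to 15.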
